A study of Mus musculus with 4 samples.

Results

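The olfactory receptor gene clusters of mouse chromosomes 2 and 9 held 269 of the 472220 positions listed by 4 methylation-assisted bisulfite sequencing (MAB-Seq) libraries made from E14, an embryonic stem cell line of the mouse. The clusters were taken as chr2:85200001-90200000 and chr9:37500001-39900000 (build mm9), 5 Mb and 2.4 Mb long, and every listed position in them was counted as a member, whatever its value. The first and second whole-genome libraries of wild-type (wt) cells listed 197 and 48 cluster positions, of 331875 and 118502 in all. Both other libraries were reduced-representation ones, in which DNA was cut with MspI, an enzyme that cleaves at CCGG. The library of cells with an shRNA against Tdg listed 8 cluster positions of 8948, and that of cells with a control shRNA listed 16 of 12895. Some positions were in more than 1 list, and 259 distinct ones remained. Each cluster was set beside the 5 Mb on either side of it (flanks) and beside the rest of its chromosome, which includes these flanks.

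Olfactory receptors are G-protein-coupled odorant receptors. Their genes form a very large family, arranged in tandem clusters, and are used in olfactory sensory neurons, each of which expresses mostly a single receptor allele. Embryonic stem cells keep them silent. TET enzymes oxidise 5-methylcytosine to 5-hydroxymethylcytosine, 5-formylcytosine (5fC) and 5-carboxylcytosine (5caC), and TDG excises the last 2 of these. In MAB-Seq a CpG methyltransferase, M.SssI, first protects unmodified CpG cytosines. A CpG cytosine still read as converted after bisulfite may thus have carried 5fC or 5caC. Other sources of converted reads, such as a cytosine missed by M.SssI, were not told apart here. A site's level, as used here, is the percentage of its reads that were converted, after the authors' correction for background.

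The gene content of the clusters was taken from the RefSeq gene order of GRCm38, a later build than that of the files, so no positions were carried over. Between Lrrc55 and Ptprj on chromosome 2 lay 293 olfactory receptor (Olfr) genes, 222 protein-coding and 71 pseudogenes, and only 3 other protein-coding genes. These were Fads2b, of the fatty acid desaturase family, and Pramel7 and Pramel6, of the PRAME family, of which Pramel7 is known for its part in the low DNA methylation of naive embryonic stem cells. Between Panx3 and Zfp202 on chromosome 9 lay 127 Olfr genes, 95 of them protein-coding, with Vwa5a, AW551984 and Tmem225 as the 3 other protein-coding genes. Only CpGs could be listed, so the starts of these genes were examined for CG. A window of 300 bases, 250 before and 50 after the RefSeq start, was available for 265 of 317 protein-coding Olfr genes and for 115 of 160 neighbouring protein-coding genes, the nearest 40 on each side of each run. The 4 windows printed here had a CG count at or nearest to the median of their group and were first by position on their chromosome among those with no ATG at the start. They show how few bases at receptor gene starts the assay could read. CG is in capitals.
Olfr1030 (olfactory receptor, chromosome 2, plus strand, RefSeq GRCm38.p6): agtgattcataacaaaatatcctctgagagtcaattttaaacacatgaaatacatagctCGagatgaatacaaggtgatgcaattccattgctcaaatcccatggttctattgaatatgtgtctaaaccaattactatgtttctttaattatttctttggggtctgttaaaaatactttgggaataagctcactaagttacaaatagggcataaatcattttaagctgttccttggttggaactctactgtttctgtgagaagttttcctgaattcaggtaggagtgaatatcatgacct
Olfr881 (olfactory receptor, chromosome 9, plus strand, RefSeq GRCm38.p6): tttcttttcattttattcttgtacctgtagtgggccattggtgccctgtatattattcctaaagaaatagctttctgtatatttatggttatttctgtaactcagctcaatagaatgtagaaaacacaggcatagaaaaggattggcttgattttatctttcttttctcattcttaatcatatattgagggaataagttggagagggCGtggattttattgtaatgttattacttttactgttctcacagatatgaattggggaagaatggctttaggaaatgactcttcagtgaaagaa
Dnajc10 (neighbour on chromosome 2, a co-chaperone of the endoplasmic reticulum, plus strand, RefSeq GRCm38.p6): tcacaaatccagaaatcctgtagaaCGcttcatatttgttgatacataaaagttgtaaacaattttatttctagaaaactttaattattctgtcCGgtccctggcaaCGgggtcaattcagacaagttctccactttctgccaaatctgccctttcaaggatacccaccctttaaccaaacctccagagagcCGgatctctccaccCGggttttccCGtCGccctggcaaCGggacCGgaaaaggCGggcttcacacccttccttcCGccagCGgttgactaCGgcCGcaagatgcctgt
Tmem218 (neighbour on chromosome 9, a transmembrane protein, plus strand, RefSeq GRCm38.p6): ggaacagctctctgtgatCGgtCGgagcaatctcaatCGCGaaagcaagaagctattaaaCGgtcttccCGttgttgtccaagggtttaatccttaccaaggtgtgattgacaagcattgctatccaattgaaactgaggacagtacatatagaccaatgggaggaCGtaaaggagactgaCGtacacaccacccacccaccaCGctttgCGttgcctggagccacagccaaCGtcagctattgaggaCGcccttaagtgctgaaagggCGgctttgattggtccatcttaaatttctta

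The 2 receptor windows held 1 CG each, whereas the window of Dnajc10 held 14 and that of Tmem218 held 13. Over all windows the Olfr genes had a median of 1 CG (quartiles 0 and 2, highest 8) and their neighbours a median of 14 (quartiles 5 and 25, highest 52). The dinucleotide CG, which reads the same on both strands, was present in 65.7% of Olfr windows (exact 95% interval 59.6% to 71.4%), in 96.5% of neighbouring windows (91.3% to 99%) and in 94.2% of the 27025 windows of all genes in the RefSeq table. The MspI site CCGG, which also contains a CG, was present in 3.02% of Olfr windows (1.31% to 5.86%), 67.8% of neighbouring windows (58.5% to 76.2%) and 52.6% of all windows. Receptor gene starts were thus poor in what both protocols can report. At 182 of the 265 Olfr genes (68.7%) the RefSeq start was itself an ATG, so these windows lie upstream of the annotated coding start and may not be the promoter. The 83 without an ATG there also had a median of 1 CG. How many CpGs the clusters hold in mm9 was not analysed here.

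**Figure D1:**
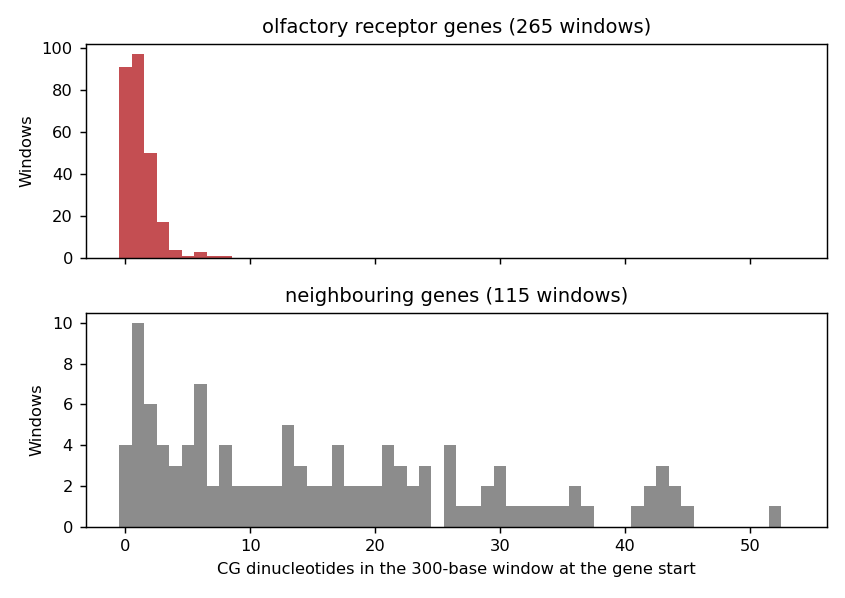
Number of CG dinucleotides (x axis) in 300-base windows at the RefSeq starts of 265 Olfr genes (upper panel) and 115 neighbouring genes (lower panel), with the number of windows on the y axis. The Olfr windows end at 8 CGs and have a median of 1, and the neighbouring windows extend to 52 and have a median of 14.

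Listed sites were sparse in both clusters and in both whole-genome libraries. In the first library the chromosome 2 cluster had 25.8 sites per Mb, against 131.0 in its flanks and 134.7 in the rest of chromosome 2. The chromosome 9 cluster had 28.3 sites per Mb, against 140.7 in its flanks and 139.4 in the rest of chromosome 9. The second library had 5.00 sites per Mb in the chromosome 2 cluster, against 49.9 in its flanks and 49.4 in the rest of the chromosome, and 9.58 in the chromosome 9 cluster, against 60.1 and 56.0. Both clusters were therefore below their surroundings in each library. The ratio of densities, clusters over flanks, for both clusters was 0.196 (95% interval 0.169 to 0.227) in the first library and 0.118 (0.0864 to 0.157) in the second. Their geometric mean was 0.152, or 6.58-fold lower in the clusters, with an SD of 0.359 between the 2 libraries on the natural log scale. Against the rest of both chromosomes the ratios were 0.195 (0.169 to 0.224) and 0.125 (0.0918 to 0.165). All intervals treat sites as independent and cover counting error only, and no p-value was computed, since the only replicates were 2 libraries in different units.

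The flanks were uneven. On the lower-coordinate side (left) the first library had 74.9 sites per Mb and on the higher-coordinate side (right) 196.8, over both chromosomes. The cluster ratio was 0.355 (0.302 to 0.416) over the left and 0.135 (0.116 to 0.157) over the right flanks in the first library. In the second library it was 0.19 (0.138 to 0.258) and 0.0855 (0.0625 to 0.114). The direction was thus the same on both sides, while the size depended on the side.

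**Figure D2:**
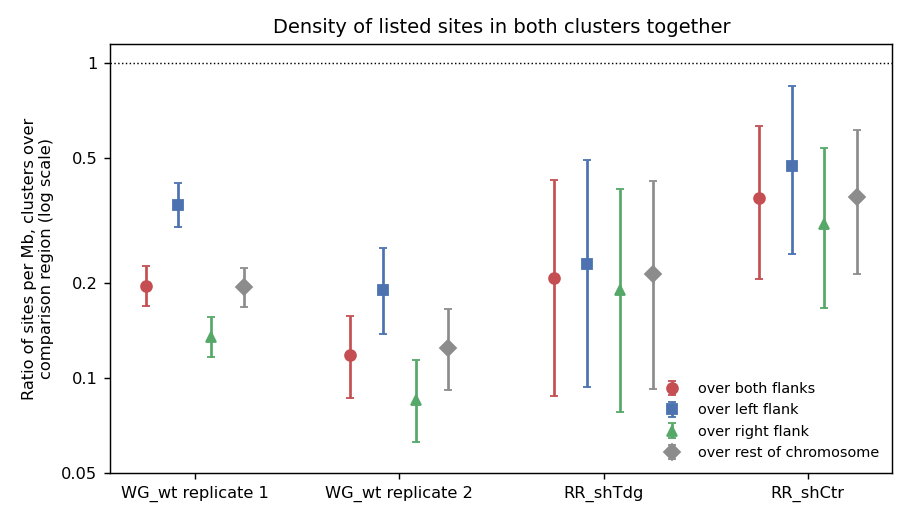
Ratio of listed sites per Mb, clusters over the comparison region, on a log axis for the 4 libraries. Points are ratios for both clusters together, bars are exact conditional binomial 95% intervals, and the dotted line marks equal density. All points lie below 1, from 0.0855 (second whole-genome library, right flanks) to 0.470 (control shRNA, left flanks).

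The density changed close to the chosen boundaries. On chromosome 2 the first library listed 14 sites in the first 1 Mb inside the left edge, against 166 in the 1 Mb just outside it. At the right edge it listed 33 in the last 1 Mb inside, against 186 in the 1 Mb outside. The second library listed 7 against 76 at the left edge and 5 against 87 at the right edge. At the left edge of the chromosome 9 cluster, the first library listed 22 sites inside, against 128 outside, and the second 12, against 61. The 5 steps of 1 Mb inside the chromosome 2 cluster held 14 to 33 sites of the first library and 3 to 7 of the second. The 2 steps taken inside the chromosome 9 cluster held 22 and 37 sites of the first library and 12 and 7 of the second. Sparse steps also occurred outside. The 10 flanking steps of chromosome 2 ranged from 28 to 304 sites in the first library and from 4 to 119 in the second, and the lowest of each overlapped the range inside. On chromosome 9 the flanking steps ranged from 24 to 352 and from 12 to 134.

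**Figure D3:**
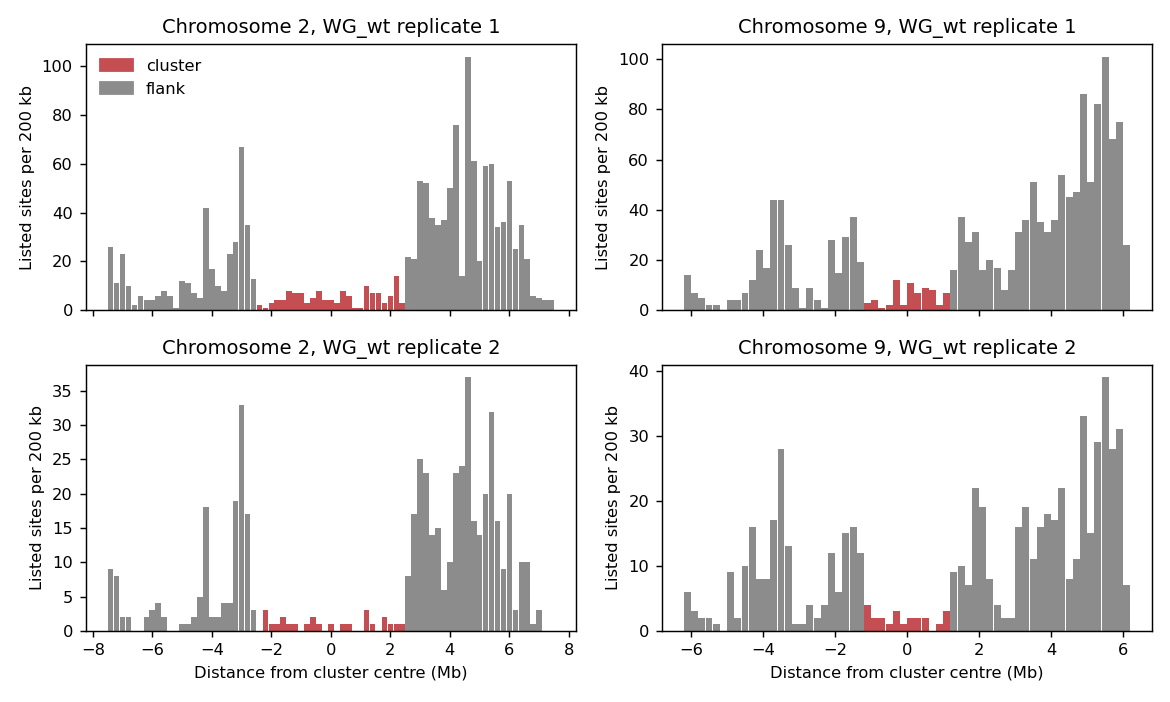
Listed sites per 200 kb (y axis) by distance from the cluster centre in Mb (x axis) for each chromosome and whole-genome library, with cluster bins in red and flanking bins in grey. Cluster bins are low throughout, next to denser flanking bins, and some flanking bins are as low, on the left of both clusters and at the far right on chromosome 2.

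Among windows of the same length, the clusters stood at the bottom of their own chromosomes. On chromosome 2, none of the 34 other 5 Mb windows had fewer sites per Mb than the cluster in either library. Their lowest values were 28.8 in the first library and 15.2 in the second. On chromosome 9, none of the 49 other 2.4 Mb windows was lower in either library, and 1 equalled the cluster in the second. Over all autosomes, 10 of 466 windows were below the chromosome 2 cluster in the first library and 2 of 466 in the second. Below the chromosome 9 cluster were 72 of 982 and 90 of 982, so windows with so few listed sites were not rare. The lowest of these autosomal windows had 0 sites per Mb in both libraries, and windows without readable sequence were not set apart. These ranks describe the libraries and are no test.

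**Figure D4:**
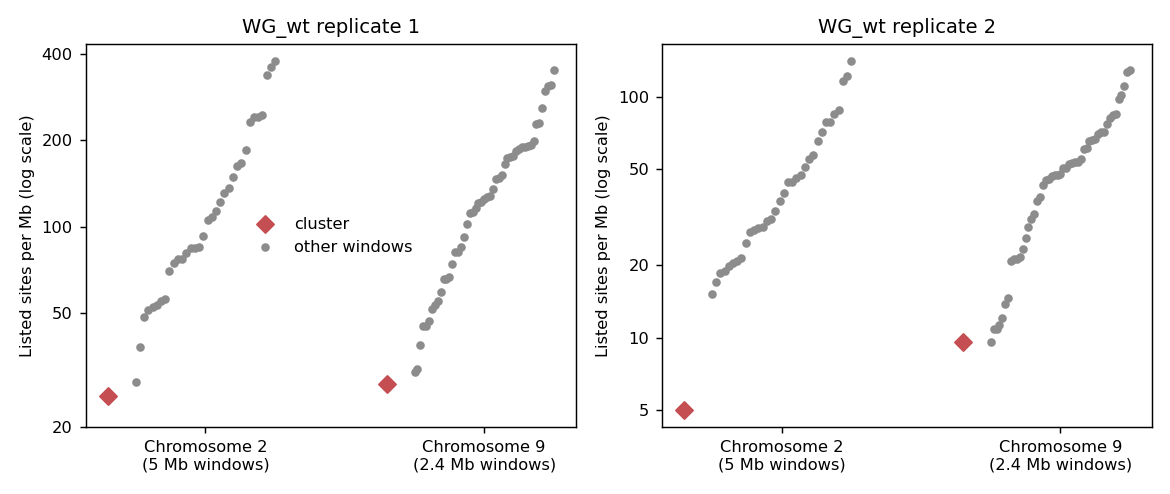
Listed sites per Mb (log axis) in consecutive windows of the cluster's own length on chromosomes 2 and 9, first library left and second library right. Red diamonds are the clusters and grey points the other windows, sorted by value. The clusters lie at the bottom, at 25.8 and 28.3 in the first library and 5.00 and 9.58 in the second, where 1 grey point is as low on chromosome 9.

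At the scale of 100 kb, sites were spread thinly over the clusters rather than gathered in a few windows. Windows of 100 kb in the clusters had a median of 2 sites (highest 10) in the first library, against a median of 10 (highest 80) in the flanks. In the second library the medians were 1 (highest 3) and 3.5 (highest 33). Neither library listed a site in 8 of 74 cluster windows (10.8%, 95% interval 4.78% to 20.2%), against 7 of 200 flanking windows (3.50%, 1.42% to 7.08%). An interval of the difference was not computed. The second library alone left 48.6% of cluster windows empty, against 17.0% of flanking windows. The fullest cluster window, chr2:89900001-90000000, held 10 sites of the first library and 0 of the second. It was followed by chr2:88000001-88100000 with 8 and 1, chr2:88900001-89000000 with 6 and 3, chr9:38800001-38900000 with 8 and 1, and chr9:38300001-38400000 with 6 and 2. The fullest flanking window, chr2:92200001-92300000, held 80 and 33.

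Neighbouring sites were correspondingly far apart in the median, although some lay within 100 bp of each other. The median distance to the next site on chromosome 2 was 16214 bp in the cluster and 1151 bp in its flanks for the first library. On chromosome 9 the medians were 16829 bp and 1906 bp. In the second library the cluster medians were 149657 bp on chromosome 2 and 76679 bp on chromosome 9, against 4775 bp and 5349 bp in the flanks. The longest stretch without a site of the first library ran from 87048300 to 87278160 on chromosome 2 (229.9 kb) and from 37885842 to 38097183 on chromosome 9 (211.3 kb). In the second library it ran from 88355752 to 88939742 on chromosome 2 (584.0 kb) and from 39176886 to 39530511 on chromosome 9 (353.6 kb). The longest flanking stretches were 250.1 kb and 361.5 kb in the first library and 683.6 kb and 320.9 kb in the second. The cluster stretch was thus the longer one on chromosome 9 in the second library alone. Flanks spanned 10 Mb per chromosome, more than either cluster, and a longer region has more room for a long stretch. The share of sites with the next within 100 bp was 18.0% in the chromosome 2 cluster and 28.5% in its flanks in the first library, and 14.9% and 26.3% on chromosome 9. In the second library, 1 of 24 such distances in the chromosome 2 cluster and 0 of 22 in the chromosome 9 cluster were within 100 bp, against 25.6% and 24.7% in the flanks. The density of each list, which affects how often the next site lies near, was lower in the clusters. Its part in these shares was not tested, and no intervals were computed for them.

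The sites that were listed in the clusters had a slightly higher median level than flanking ones. In the first library the median level of the 197 cluster CpGs was 12.6% (95% interval 11.4% to 14.5%), with quartiles of 8.35% and 19.4%. In the flanks the median was 10.7% (10.4% to 11.1%), with quartiles of 5.05% and 18.5%, and in the rest of both chromosomes 10.8%. The difference of clusters minus flanks was 1.86 percentage points (0.649 to 3.84). Sites listed at a level of 0 were 24 of 197 in the clusters (12.2%, 7.96% to 17.6%) and 561 of 2717 in the flanks (20.6%, 19.1% to 22.2%). Without them the medians were 14.1% and 13.0%, and the difference of 1.13 points had an interval of -0.47 to 2.41, which includes 0. The median was 12.1% (11.0% to 14.9%) in the chromosome 2 cluster and 12.9% (10.4% to 15.8%) in the chromosome 9 cluster. Read depth of this library is unknown, and its part in the share at 0 was not tested.

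Highly converted CpGs were few in number, and their share of the listed sites had an interval that overlapped that of the flanks. A level of at least 50% was found at 12 cluster CpGs of the first library (6.09%, 3.19% to 10.4%) and at 124 flanking ones (4.56%, 3.81% to 5.42%). Full conversion was found at 3 cluster CpGs (1.52%, 0.315% to 4.39%) and 33 flanking ones (1.21%, 0.837% to 1.70%). Of the 12, 9 lay on chromosome 2 and 3 on chromosome 9. The closest pair was on chromosome 2 at 88941543 (100%) and 88941563 (64.6%), 20 bp apart. The next pairs were 88028095 (78.8%) and 88031325 (60.0%) on chromosome 2, 3230 bp apart, and 38359610 (71.3%) and 38367716 (100%) on chromosome 9, 8106 bp apart. Whether any of these lies in a receptor gene was not analysed here, since no annotation of mm9 was used.

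The second library gave p-values in place of levels. The number of converted and total reads was recovered from them at 43 of its 48 cluster sites, those with p-values above 1e-07, as the only combination that gives each p-value in a binomial test against a background of 3.8%. These sites had a median of 12 reads (95% interval 11 to 15, range 10 to 105), against 13 (13 to 14) at 932 flanking sites. The median fraction of converted reads, before any correction, was 27.3% (25% to 30%) in the clusters and 27.3% in the flanks. The median of the whole list was 27.3% too. At such depths a low p-value leaves few possible fractions, so equal medians cannot show that levels were alike. The intervals of depth and of fraction overlapped those of flanking sites, while the depth of CpGs not listed is unknown. Calls of 3 converted reads among 10, the lowest number of reads recovered, made up 9 of 48 cluster sites (18.8%, 8.95% to 32.6%). In the flanks they made up 97 of 1100 sites (8.82%, 7.21% to 10.7%). The median p-value was 0.00400 (0.00113 to 0.00538) in the clusters and 0.00154 (0.00113 to 0.00203) in the flanks, and these intervals overlap. The plus strand held 29 of the 48 sites and the minus strand 19, and at 0 of 48 CpGs were both strands listed, against 8 of 1092 (0.733%) in the flanks. The count of 0 allows a share of up to 6.25%.

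**Figure D5:**
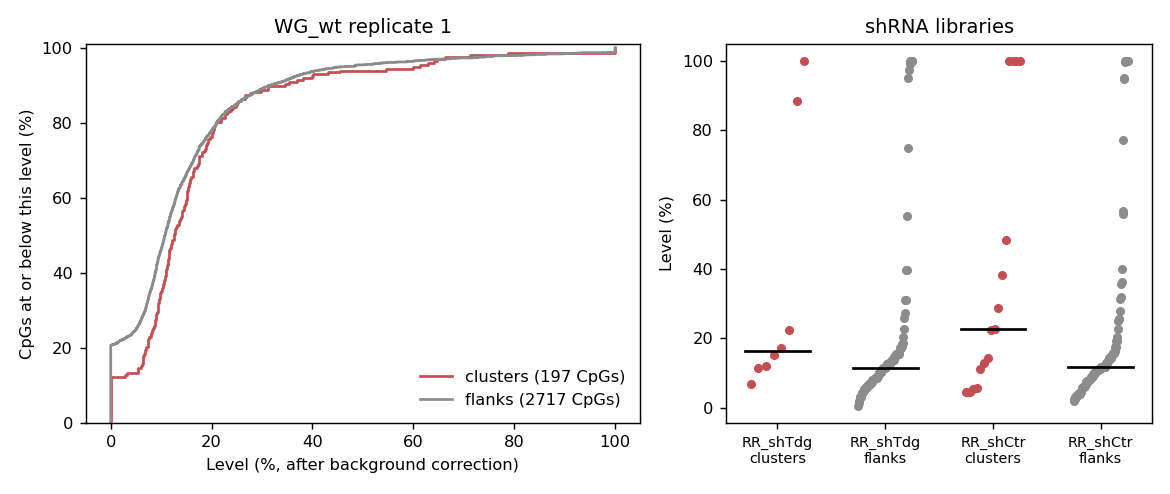
Left, share of CpGs (y axis, %) at or below a level (x axis, %) in the first whole-genome library, for 197 cluster CpGs (red) and 2717 flanking CpGs (grey). Right, level (%) of each site in both shRNA libraries, with black lines at the medians. The 2 curves start at 12.2% and 20.6%, the shares at 0, and draw together above a level of about 20%.

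The whole-genome libraries shared 6 cluster CpGs. The second library had 29 plus-strand sites in the clusters, of which 6 were listed at the same base in the first (20.7%, 95% interval 7.99% to 39.7%), against 175 of 547 in the flanks (32.0%, 28.1% to 36.1%) and 34.7% in the rest of both chromosomes. The difference of clusters minus flanks, -11.3 percentage points, had an interval of -24.6 to 8.13 and was not distinguishable from 0 at this number of sites. Sharing within 100 bp did differ. A first-library site lay that near to 7 of 29 cluster sites (24.1%, 10.3% to 43.5%) and to 309 of 547 flanking sites (56.5%, 52.2% to 60.7%), a difference of -32.4 points (-46.8 to -12.5). The density of the first list, which sets how often any site lies near, was also lower in the clusters, as given above, and its part in this was not tested. Of the 19 minus-strand sites, 0 fell on a first-library CpG, which allows a share of up to 15.8%, or 17.6% by the exact 95% interval. In the flanks the share was 17.2% (14.1% to 20.6%). In the other direction, 6 of 197 first-library cluster CpGs (3.05%, 1.13% to 6.51%) were listed in the second library on either strand, against 9.64% in the flanks (8.56% to 10.8%). With the plus strand alone the cluster share was the same and the flanking share 6.44% (5.55% to 7.43%), and these intervals overlap. The density ratio of clusters over flanks was lower in the second list than in the first, as given above. Its part in these shares was not tested.

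The shared CpGs included 3 of the 4 most strongly converted cluster CpGs of the first list. The 3 shared sites with a first-library level of at least 50% were chromosome 9 position 38097183 (context ATCGA, level 100%), chromosome 9 position 38367716 (GCCGG, 100%) and chromosome 2 position 88028095 (TGCGG, 78.8%). Contexts give the 5 bases centred on the cytosine of the plus strand, as deposited. The second library gave all 3 a p-value of 0, so no reads could be recovered there. The other 3 shared sites were weaker. Chromosome 9 position 38448283 (TACGA) had a first-library level of 17.0% and 12 of 75 reads converted in the second library. Chromosome 2 position 88355752 (TCCGA) had 11.6% and 3 of 10 reads, and chromosome 2 position 89020022 (TTCGG) had 5.46% and 4 of 15 reads. All 3 plus-strand cluster sites with p-values at or below 1e-07 were thus in the first list, against 34 of 77 in the flanks (44.2%, 32.8% to 55.9%), but a count of 3 of 3 allows a share as low as 29.2%. Of the plus-strand sites with p-values above 0.001, 2 of 20 cluster sites (10%, 1.23% to 31.7%) and 81 of 289 flanking sites (28.0%, 22.9% to 33.6%) were shared. The other 9 first-library CpGs at 50% or more were not in the second list, so 3 of 12 were shared (25%, 5.49% to 57.2%), against 20 of 124 in the flanks (16.1%, 10.1% to 23.8%).

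Sequence around the cytosine was deposited for the first library alone. Cluster CpGs had A or T on both sides of CG in 20.3% of cases (95% interval 14.9% to 26.6%), against 15.5% in the flanks (14.2% to 16.9%) and 17.3% over the whole list. G or C on both sides was found in 31.5% (25.1% to 38.5%) of cluster and 36.8% (35% to 38.7%) of flanking CpGs. The intervals of both differences, -0.758 to 11.3 and -12.0 to 1.88 points, include 0. Of all 3 bases outside CG, 57.7% were G or C in the clusters (53.6% to 61.7%) and 60.3% in the flanks (59.2% to 61.3%). In these groupings, a difference from the flanks was thus not detectable at this number of sites. Among contexts of 1 base on each side, GCGT made up 3.55% of cluster CpGs (1.44% to 7.18%). Its share was 6.70% in the flanks (5.79% to 7.70%) and 8.03% in the rest of both chromosomes (7.77% to 8.30%). This context was picked after its values were seen.

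All but 2 of the 64 possible contexts occurred in the clusters. The most frequent was CCCGG, which holds an MspI site, with 10 CpGs (5.08%, 2.46% to 9.14%, against 3.83% in the flanks) and levels from 0 to 25.1%. AGCGG followed with 9 CpGs at 7.32% to 61.2% and GGCGG with 8 at 5.46% to 31.2%. TGCGT, the most frequent context in the whole list with 3.82% of its CpGs, was found at 1 cluster CpG, at chromosome 2 position 89294164 with a level of 14.1%. That is 0.508% of cluster CpGs (0.0129% to 2.80%), against 2.94% of flanking ones (2.34% to 3.65%). Contexts resembling TG or CA repeats were TGCGT together with TGCGC, as well as CACGC together with CACGT. Whether such CpGs lie in repeats was not analysed. These contexts made up 13 of 197 cluster CpGs (6.60%, 3.56% to 11.0%) and 294 of 2717 flanking ones (10.8%, 9.68% to 12.0%). The difference of -4.22 points (-7.50 to 0.345) includes 0, whereas that from the rest of both chromosomes, -5.19 points (-8.25 to -0.760), does not. How often each context occurs in these regions was not counted, so the shares are no enrichments.

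In the reduced-representation libraries, the cluster sites of both shRNAs could be followed singly. With Tdg shRNA 1.08 sites per Mb were listed in the clusters, against 5.20 in the flanks, a ratio of 0.208 (95% interval 0.0874 to 0.425). For control shRNA the densities were 2.16 and 5.80, a ratio of 0.373 (0.206 to 0.631). On chromosome 2 alone the control ratio was 0.542 (0.269 to 1.02), an interval that includes 1. Both libraries were thus sparse here, in regions where the MspI site was rare at gene starts, and the part of MspI sites in this was not tested. The Tdg shRNA library listed 8 cluster sites and the control shRNA library 16, a ratio of 0.5 (0.185 to 1.24). That of the flanks was 0.897 (0.681 to 1.18) and that of the whole lists 0.694 (0.675 to 0.713). On chromosome 2 the cluster counts were 4 and 13, a ratio of 0.308 (0.0731 to 0.996), against ratios of 0.708 in the flanks and 0.697 in the rest of the chromosome. On chromosome 9 they were 4 and 3, a ratio of 1.33 (0.226 to 9.10), against 1.03 and 1.13. The ratio was thus lower on chromosome 2 than on chromosome 9 outside the clusters as well. Several chromosome 2 cluster sites were close neighbours, while the interval of 0.308 treats sites as independent and only just excludes 1. Each group had 1 library, so there is no replicate check.

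Both shRNA libraries listed 4 cluster sites in common. Chromosome 9 position 38123729 was at 100% in the Tdg shRNA library and at 100% in the control library. Chromosome 2 position 86020488 was at 88.5% with Tdg shRNA, against 100% with control shRNA. Chromosome 9 position 39161520 was at 15.3% with Tdg shRNA, against 22.4% with control shRNA. Chromosome 2 position 89739521 was at 11.9% with Tdg shRNA, against 11.2% with control shRNA. The level was lower with Tdg shRNA at 2 of these sites, equal at 1 and higher at 1. The 4 shared sites were 50% of the Tdg shRNA cluster list (15.7% to 84.3%) and 25% of the control list (7.27% to 52.4%). In the flanks 22 sites were shared, 21.2% and 19.0% of the lists.

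All but 2 of the sites listed in a single shRNA library were below 50%. With Tdg shRNA alone, chromosome 2 positions 87725801 and 87725807 were at 11.4% and 22.4%, and chromosome 9 positions 39728338 and 39872056 at 17.3% and 6.93%. With control shRNA alone there were 12 sites, from 4.55% to 100%. The highest of these were chromosome 2 positions 89941822, 89941841 and 89941851, at 48.5%, 100% and 100%, within 30 bp of each other and inside the 100 kb window that was fullest in the first whole-genome library. The median level over all cluster sites was 16.3% (6.93% to 100%) for Tdg shRNA and 22.6% (5.50% to 100%) for control shRNA, with intervals too wide to tell either from its flanks, at 11.4% and 11.6%.

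None of the cluster sites of either shRNA library was at the same base as a site of a whole-genome library, or within 100 bp of one. For Tdg shRNA 0 of 8 allows a share of up to 37.5%. In the flanks 22.1% (14.6% to 31.3%) lay at the same base and 58.7% (48.6% to 68.2%) within 100 bp. For control shRNA 0 of 16 allows up to 18.8%. In the flanks 7.76% (3.61% to 14.2%) lay at the same base and 42.2% (33.1% to 51.8%) within 100 bp. On chromosome 2, which held 13 of the 16 control sites, flanking same-base shares were 2.94% for Tdg and 2.08% for control shRNA. Sharing at the same base was thus not distinguishable from that of the flanks at this number of sites. The first whole-genome library lists each CpG at its plus-strand cytosine, whereas the shRNA positions appeared to include both strands. A minus-strand shRNA position could not match that library at the same base, so the flanking same-base shares may be too low. The cluster counts of 0 also held within 100 bp. The 3 neighbouring control sites came nearest, 118 to 147 bp from a first-library site, together with chromosome 2 position 89627569 (5.50%), 125 bp from one. Both whole-genome lists were themselves sparser in the clusters, and the part of this was not tested. The cells also differed by the shRNA and the protocols select different fragments.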

How the data were processed

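MAB-Seq site lists of 4 libraries of E14 cells were used. The submitters' processing notes name Bismark 0.10.1, CASAVA 1.8 and build mm9, and the calling rule is not given in the sources used here. The authors deposited a percent per CpG for the first whole-genome library and both shRNA libraries, and a p-value per cytosine for the second whole-genome library. All percent values equalled rounded fractions corrected by the authors for a background of 3.0% (first whole-genome library), 3.3% (Tdg shRNA) or 2.9% (control shRNA). Reads of the second library were recovered from p-values above 1e-07 (relative tolerance 1e-08, up to 2000 reads). Depth of the other libraries is unknown.

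Sites were counted by region with Python 3.11.15, pandas 2.3.3 and SciPy 1.17.1. The rest of a chromosome ran from its first to its last listed position, without the cluster but with its flanks. Shares have exact (Clopper-Pearson) 95% intervals, ratios of counts exact conditional binomial ones, medians order-statistic ones, and differences combine both groups' bounds by squares and sums. A share of 0 is given the limit of 3 sites. Intervals cover counting error only, and PCR copies were not told apart. The interval and read-recovery steps were tested on simulated data. Whether both whole-genome libraries were from separate cultures is not stated. All shRNA library positions were marked as plus strand, although both strands appeared to be present, so they were compared by base without regard to strand.

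The clusters, contexts and rules for what is named were chosen with earlier results of these data known. Named were shared CpGs at 50% or more, the 5 fullest windows of 100 kb, shRNA library sites shared between libraries, the 3 most frequent contexts and the longest stretches without a site. Other sites that are named were chosen after their values were seen, as were the gene start windows. Densities per CpG could not be computed, since no genome of build mm9 was used.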

Additional observations from a re-analysis of the deposited data

How the results depend on the processing

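The ratio of densities, clusters over flanks, ranged from 0.118 to 0.196 when either whole-genome library was left out, and that over the rest of both chromosomes from 0.125 to 0.195. Over the left flanks alone the first was 0.260, since these flanks were sparser. With 1 strand or merged strands of the second library, stricter lists, no sites at 0, boundaries moved 250 kb inward, either cluster alone, right flanks alone or flanks of 2 Mb, the ratio over flanks lay between 0.108 and 0.179. Leaving out the dense windows of chromosomes 9 and 2 (chosen after seeing the data) gave 0.160 over the rest of the chromosomes. The difference in sharing was -32.4 points when sites within 100 bp counted, against -11.3 at the same base. It was 8.01 points (-23.4 to 42.9) with second-library p-values at or below 0.001. Its intervals included 0 under all alternatives run except that of 100 bp. The Tdg over control shRNA ratio was 1.33 for chromosome 9 alone, from 4 and 3 sites. The interval of the level difference included 0 without sites at 0 and for chromosome 9 alone, as did that of the share at 0 for chromosome 9 alone (-13.1 to 5.54 points). Densities per CpG were not run. No paired analysis was possible because the groups share fewer than 2 replicate numbers.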
